A study of Mus musculus with 4 samples.

Results

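Nucleoporins and nuclear transport receptors were followed in RNA of fibroblast protrusions and of the cell bodies they grew from. The members were all probe sets whose only gene symbol in the platform annotation was a nucleoporin name or one of a fixed set of importin, transportin and exportin names. The rule used names and no measured value. It found 132 of 45037 non-control probe sets, which stand for 49 of 18193 genes with a probe set of their own. By role these were 3 membrane nucleoporins, 1 paralog of such a protein (Nup210l), 21 soluble nucleoporins and 24 transport receptors.

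All 4 samples were NIH/3T3 cells, a mouse embryo fibroblast line with no genetic change given in the labels, placed without serum above a porous filter that carried fibronectin on its lower face only. The labels give no other treatment and no sample without fibronectin. Cells extended pseudopodia through the pores for 1 h and were fixed in 0.3% formaldehyde for 10 min, then either the upper side was wiped off to leave pseudopodia (2 arrays) or the lower side to leave cell bodies (2 arrays). The separation was by hand, so carry-over between the compartments is possible and was not measured here. The submitters call the 2 samples of a compartment independent, but no label names separate cultures. The p-values therefore reflect the spread among these 4 samples alone, and that spread may be technical.

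The nuclear pore is a ring-shaped channel through the nuclear envelope, built from many copies of proteins called nucleoporins. A few nucleoporins cross the membrane and anchor the ring. Their messengers are translated at the endoplasmic reticulum, whereas soluble nucleoporins and transport receptors are made on free ribosomes. Importins and exportins are the receptors that carry cargo through the channel, loaded and unloaded by the GTPase Ran.

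Each value is the linear intensity of a probe set, and none is below a floor of 20. Array medians were 40.5 to 45.6, and 30.5% to 34.8% of probe sets lay at the floor. With 2 arrays a compartment, precision is set by how few they are. Of 11 fibroblast markers, 9 passed the filter on dim genes, and Thy1 and Lum were at the floor on all 4 arrays. Of these 9, 4 fell in pseudopodia (Col1a1, Col1a2, Pdgfra and Pdgfrb), or 44.4% against 8.69% of all genes tested. All 9 differences were below 0. Of 6 epithelial markers 4 passed the filter and 0 were called, with Krt18 at the floor and Epcam at 248 to 604. Of 5 haematopoietic markers on the array 1 passed the filter (Cd14, at 680.0 to 979) and was not called, and Itgam was at the floor. Summed over their lists, epithelial markers read 699.6 and 702.8 in pseudopodia and 1024 and 774 in cell bodies, and haematopoietic markers 772 and 821 and 876 and 1098. Fibroblast markers summed to 42690 and 43608 in pseudopodia and to 66287 and 59046 in cell bodies. The actin control probes gave a log2 ratio of 3′ over 5′ signal of 0.56 and 0.65 in pseudopodia and of 0.37 and 0.36 in cell bodies. The part of these markers and of this ratio in the results was not tested. In bulk RNA, fewer contributing cells and less of an RNA per cell cannot be told apart.

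The comparison asks which of these RNAs take a larger or smaller share of the RNA in pseudopodia than in cell bodies. Each gene was read at its brightest probe set, log2(intensity + 1) was compared by limma, and an adjusted p under 0.05 over 11320 genes counted as a call. All 49 members passed the filter on dim genes. Of these, 7 were called: Ndc1 and Pom121 fell in pseudopodia, and Nup210, Xpo1, Tnpo3, Kpna3 and Kpna4 rose. The 7 are 14.3% of the members, against 14.6% of all genes tested, so the share called among the members is close to the background and is no result about them. Those called higher were 10.2% of members against 5.92% of all genes, and those called lower 4.08% against 8.69%. Of the 49, 21 had differences above 0, where 49.7% of all genes did, and 35 (71.4%) had a 95% interval within -1 to 1, against 69.3% of all genes. The median log2 difference of the members was -0.11, and that of all genes -0.0020.

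**Figure D1:**
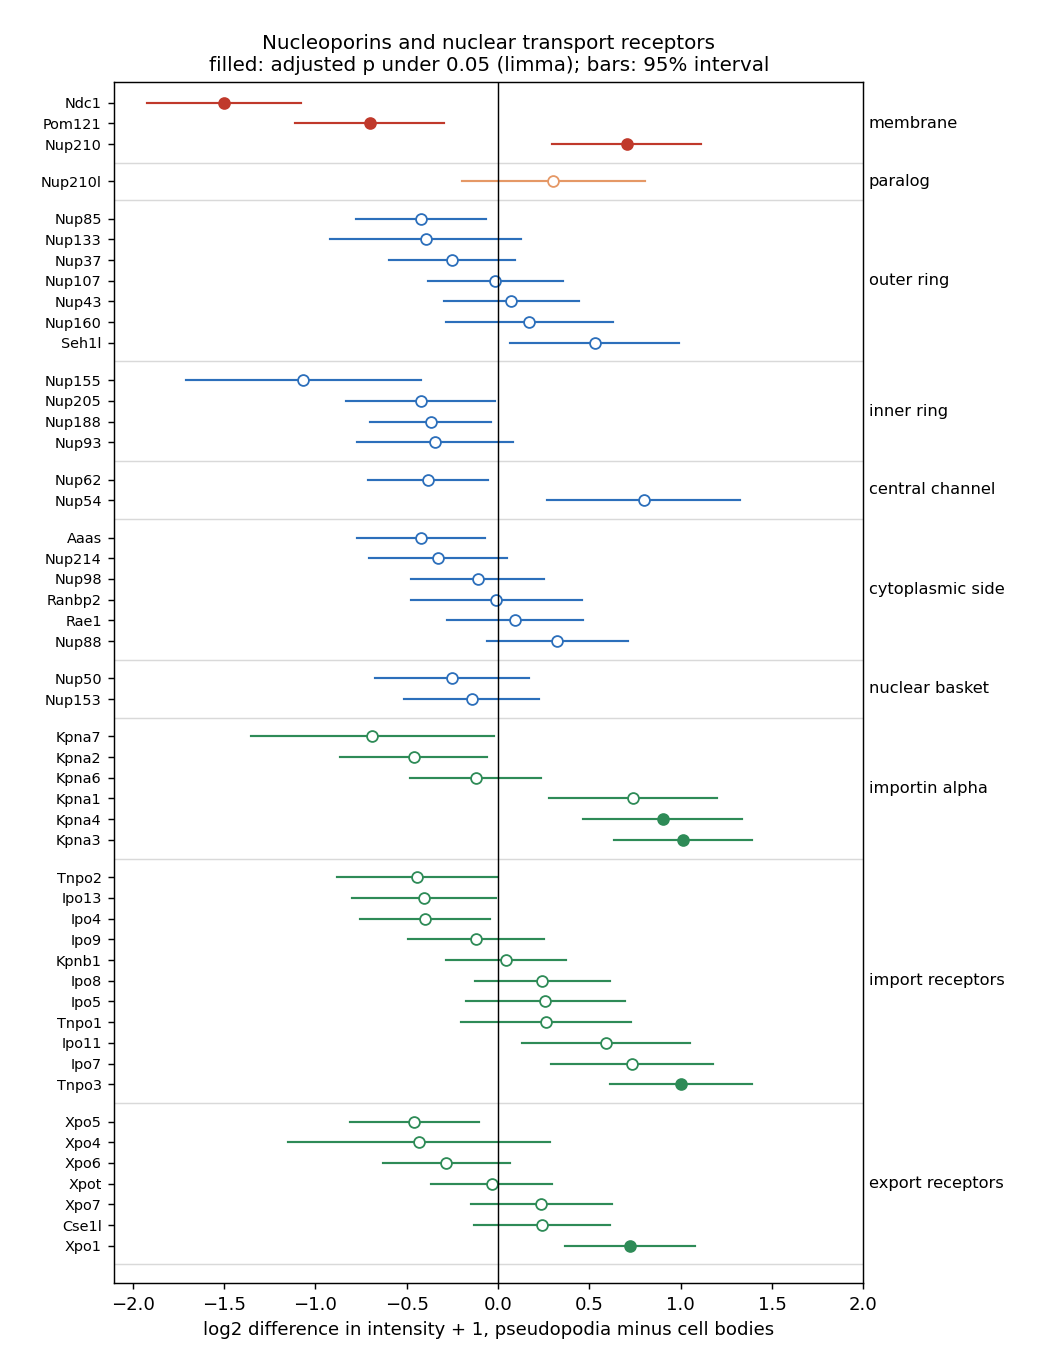
Log2 difference (pseudopodia minus cell bodies, on the log2(intensity + 1) scale) of the 49 member genes, 1 row per gene, grouped by role, with bars for the 95% interval of the fit and filled points for an adjusted p under 0.05. The membrane nucleoporins Ndc1 and Pom121 lie at -1.50 and -0.70, the soluble nucleoporins have open points throughout, and the called receptors lie between 0.72 and 1.01.

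Of the membrane nucleoporins, Ndc1 showed the deepest loss among the 49 members. Ndc1 is a multi-pass protein that anchors the pore in the envelope. In pseudopodia its intensity was 520.0 and 446, and in cell bodies 1485 and 1257. Both pseudopodia arrays thus lay below both cell body arrays, and the mean was 483 ± 52.0 against 1371 ± 162 (SD, n = 2). It fell by 1.50 on the log2 scale (SE 0.16, limma adjusted p = 0.0166), which is 2.83-fold. A second probe set read 422 and 620 against 1114 and 1146, and differed by -1.14 on the log2 scale (SE 0.23, adjusted p = 0.0452 in the fit that treats each probe set alone). The remaining probe set was dim, at 25.1 and 20 against 90.9 and 64.1, and was not tested, its mean being just under the filter. All 3 probe sets of Ndc1 were therefore lower on both pseudopodia arrays, the dim one partly at the floor.

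Pom121, a single-pass protein with a long tail that lines the channel side of the pore, was also lower in pseudopodia. Its brightest probe set read 2762 and 3390 against 4870 and 5095, with no overlap between compartments. The mean was 3076 ± 444 against 4982 ± 158 (SD, n = 2), and it fell by 0.70 on the log2 scale (SE 0.16, limma adjusted p = 0.0492). That call is close to the threshold. With the mean of both probe sets the difference was -1.16 (adjusted p = 0.0178). The call was lost with quantile normalization (-0.57, adjusted p = 0.0838) and when probe sets that can match several transcripts were left out (adjusted p = 0.0501). In the latter setting Pom121 was read at the same probe set, and only the other genes in the fit changed. The other probe set of Pom121, of the kind that can match several transcripts, read 320 and 435 against 1036 and 1286. It differed by -1.63 (SE 0.22, adjusted p = 0.0269 in the fit of single probe sets), which is 3.09-fold. The brightest probe set of Pom121 did not pass in that fit (adjusted p = 0.0664).

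Nup210, a single-pass protein whose bulk lies in the lumen of the envelope, went the other way, at a level close to the floor. It read 62.2 and 55.2 in pseudopodia and 32.5 and 38.8 in cell bodies. The compartments did not overlap, and the log2 difference was 0.71 (SE 0.16, limma adjusted p = 0.0486), or 1.63-fold. Its average put it at percentile 2.28 of the tested genes, and its cell body values lay under the filter level of 42.0, so that it was tested only because of its pseudopodia values. The call was lost with a pseudocount of 32 (0.42, adjusted p = 0.0782), with quantile normalization (0.0846), with median centring (0.0613) and in the fit of single probe sets (0.0654). Its other probe set was at the floor on all 4 arrays. Nup210 RNA was thus barely above the floor in these fibroblasts, and in mouse cells its level is known to vary between cell types. The paralog Nup210l read 123 and 136 against 89.6 and 122 (difference of 0.30, 95% interval -0.20 to 0.81, adjusted p = 0.360).

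Since Nup210 passed the filter through the compartment where it was high, its difference supports no direction for the class. The median of the 3 membrane nucleoporins, -0.70, is the value of Pom121. Over Ndc1 and Pom121 alone, a choice made after the values were seen, it was -1.10. Soluble nucleoporins had a median of -0.25 and transport receptors one of 0.14. The difference between these classes was not tested, since 4 arrays can be split into pairs in 3 ways and no permutation p can go below 0.333. Their ranges overlap: Pom121 lies inside the range of the soluble nucleoporins, which ran from -1.07 to 0.80.

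**Figure D2:**
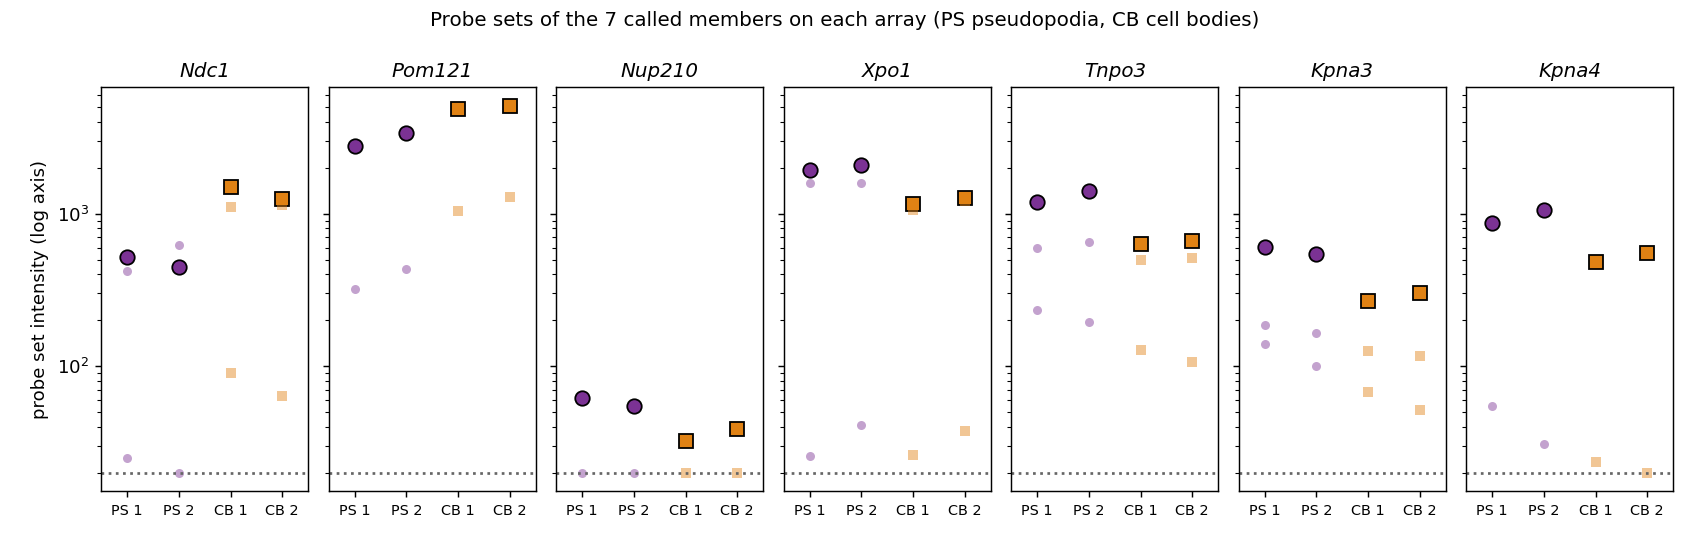
Intensity (log axis) of every probe set of the 7 called members on each of the 4 arrays, with circles for pseudopodia (PS), squares for cell bodies (CB), large outlined points for the brightest probe set, pale points for the others and a dotted line at the floor of 20. Ndc1 and Pom121 sit lower on both pseudopodia arrays, Nup210 reads at most 62.2 on any array, and the brightest probe sets of Xpo1, Tnpo3, Kpna3 and Kpna4 sit higher on both pseudopodia arrays.

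Of the 21 soluble nucleoporins, 0 were called by limma at the gene level in either direction, against 14.6% of all genes. Differences above 0 were found for 6, against 49.7% of all genes, and a 95% interval within -1 to 1 for 19, against 69.3%. A change of more than 2-fold either way is outside those 19 intervals. With an unadjusted p, the whole member set had 24 of 49 genes (49.0%) under 0.05, against 31.4% of all genes. That excess depends on the scaling: with quantile normalization 14 of 49 members and 3658 of 11318 genes were under 0.05, and with median centring 18 members and 3335 of 11320 genes. The arrays of the compartments did not overlap for 40 members (81.6%), against 60.8% of all genes. Members were brighter than most genes, with a median percentile of 74.0 by average level, and the part of brightness in these shares, and of the scaling in the share without overlap, was not tested.

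The inner ring, which ties the outer coat to the membrane and the channel, had 4 of 4 measured members below 0, none called at the gene level. Nup155, the ring protein that contacts the membrane, read 564 and 864 in pseudopodia against 1333 and 1604. These arrays did not overlap, and the log2 difference was -1.07 (SE 0.25, 95% interval -1.71 to -0.42, limma adjusted p = 0.0532), just outside the threshold. Its second probe set, at 204 and 260 against 411 and 425, passed in the fit of single probe sets (-0.85, SE 0.18, adjusted p = 0.0494), where the brightest had an adjusted p of 0.0674. At the gene level the adjusted p of Nup155 ran from 0.00984 with median centring to 0.239 with no filter, and with the mean of all its probe sets the difference was -0.66 (adjusted p = 0.141). Its remaining, dim probe set differed by -0.055. Nup205, Nup188 and Nup93, the other scaffold proteins of the ring, had differences of -0.42, -0.37 and -0.35 (adjusted p of 0.148, 0.129 and 0.233). Nup205 read 1865 and 1562 against 2170 and 2415, and its dim second probe set differed by 0.027.

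The channel proteins Nup62 and Nup54, which bind each other and carry the repeats that receptors touch, had differences of opposite sign. Nup62, the brightest soluble member, read 3074 and 3180 against 4063 and 4090, a log2 difference of -0.38 (SE 0.13, limma adjusted p = 0.116). Its 5 probe sets all lay between -0.62 and -0.32, and none passed the test. Nup54 read 992 and 1061 against 496 and 701, with a difference of 0.80 (SE 0.20, adjusted p = 0.0657). Its second probe set read 524 and 549 against 310 and 301 and did pass in the fit of single probe sets (0.81, SE 0.14, adjusted p = 0.0350). All 4 tested probe sets of Nup54 were above 0, at 0.62 to 0.81. At the gene level the adjusted p of Nup54 ran from 0.0240 without probe sets that can match several transcripts to 0.241 with no filter, and it was 0.0544 with quantile normalization, 0.0506 with median centring and 0.0591 with the mean of all its probe sets.

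The outer ring, the coat that shapes the pore at both faces, had 7 measured members with differences of -0.42 to 0.53 and a median of -0.014. Its brightest member, Nup85, read 1043 and 920 against 1309 and 1315 (log2 difference -0.42, SE 0.14, limma adjusted p = 0.114), and its 2 probe sets lay at -0.45 and -0.42. Seh1l was at the other end, at 1241 and 1212 against 740 and 974 (0.53, SE 0.18, adjusted p = 0.121), with all 6 tested probe sets above 0. Nup37 differed by -0.25 (adjusted p = 0.279). Both Nup107 and Nup160 had intervals that span 0, of -0.38 to 0.35 and -0.29 to 0.63. The coat thus held members on either side of 0, and none passed.

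On the cytoplasmic side, where export complexes are taken apart, 6 members had differences of -0.42 to 0.33. Aaas, which Ndc1 is known to hold at the pore, read 1272 and 1232 against 1591 and 1764 (-0.42, SE 0.14, limma adjusted p = 0.109), so its arrays did not overlap but its difference did not pass. Nup214, the docking site of export receptors, differed by -0.33 (adjusted p = 0.204), and its partner Nup88 by 0.33 (adjusted p = 0.215). The mRNA export factor Rae1 read 1932 and 2244 against 1932 and 1973, a difference of 0.093 (95% interval -0.28 to 0.46), and its dim probe set differed by -0.41. Nup98, to which Rae1 binds, had a difference of -0.11 (adjusted p = 0.647). Ranbp2, a large filament protein that binds Ran, read 409 and 395 against 351 and 466, so its compartments overlapped (-0.0092, adjusted p = 0.981). The tested probe sets of Ranbp2 ran from -0.47 to 0.54, and none passed. In the nuclear basket, which faces the nucleus, Nup50 and Nup153 differed by -0.25 and -0.14 (adjusted p of 0.366 and 0.556), but the dimmer probe set of Nup153 was at 0.67 (adjusted p = 0.0511 in the fit of single probe sets).

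The receptors held the members that rose at the brighter levels. Of 24 receptors, 4 rose and 0 fell. The share called, 16.7% against 14.6% of all genes, is close to the background and is no result about the class. By direction, 16.7% were higher against 5.92%, and 0% lower against 8.69%. Differences above 0 were found for 13, where 49.7% of all genes had them. The 4 came from all 3 kinds of receptor: the adaptors Kpna3 and Kpna4, the import receptor Tnpo3 and the export receptor Xpo1.

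Importin alpha adaptors recognise the classical import signal and hand the cargo to importin beta. Kpna3 read 608 and 546 in pseudopodia and 268 and 303 in cell bodies. The pseudopodia mean of 577 ± 43.8 was above the cell body mean of 285 ± 24.9 (SD, n = 2), and Kpna3 rose by 1.01 (SE 0.15, limma adjusted p = 0.0201), or 2.02-fold. Its other 2 probe sets differed by 0.52 and 0.99 and did not pass on their own (adjusted p of 0.0970 and 0.0720). Kpna4, of the same subfamily of importin alpha as Kpna3, read 870 and 1061 against 479 and 552. It rose by 0.90 (SE 0.17, adjusted p = 0.0326), or 1.87-fold, with no overlap between compartments. The dim second probe set of Kpna4, under the filter, read 55.0 and 30.9 against 23.7 and 20. Whether RNA of Kpna3 and Kpna4 binds each other's probes was not tested.

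The other adaptors did not pass, and they lay on either side of 0. Kpna1 read 518 and 552 against 281 and 365 (0.74, SE 0.18, limma adjusted p = 0.0565), and its 5 probe sets lay at 0.33 to 0.74. Kpna1 was called with a pseudocount of 32, with a stricter filter and with the replicate number as a block, and in none of the other settings. Kpna2, the brightest adaptor and a gene of dividing cells, read 3371 and 2908 against 4605 and 4037, a difference of -0.46 (SE 0.16, adjusted p = 0.120). Kpna6 had a difference of -0.12 at its brightest probe set and 0.23 at the other. The dim Kpna7, of the same subfamily as Kpna2, read 59.8 and 36.8 against 72.5 and 80.2 (-0.69, adjusted p = 0.149).

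Among the import receptors, Tnpo3, which carries splicing factors of the SR class into the nucleus, was the one that rose. It read 1185 and 1411 against 634 and 658, with means of 1298 ± 160 and 646 ± 17.3 (SD, n = 2). It rose by 1.00 (SE 0.15, limma adjusted p = 0.0214), or 2.00-fold. That probe set is of the kind that can match several transcripts, and the 2 others of Tnpo3 differed by 0.29 and 0.87 (adjusted p of 0.263 and 0.0502 in the fit of single probe sets). Without probe sets of that kind the gene was read at the one with 0.29, and the call was lost (adjusted p = 0.229). Tnpo3 was thus higher in pseudopodia at all 3 probe sets, by amounts that differ.

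Ipo7, a receptor for ribosomal proteins and histones, read 1276 and 1522 against 766 and 916 and missed the threshold (0.73, SE 0.17, limma adjusted p = 0.0529). It passed in some settings, with the lowest adjusted p from a stricter filter (0.0271), but with the mean of all its probe sets the difference was 0.018 (adjusted p = 0.950) and with no filter the adjusted p was 0.183. Its dim probe sets were at -0.62 and -0.058, so the probe sets of Ipo7 did not agree in sign. Ipo11 read 1016 and 1157 against 639 and 811 (0.59, adjusted p = 0.0925). Kpnb1, the importin beta that pairs with the adaptors and whose messenger is known to be carried into axons of rodent neurons, read 2974 and 2891 against 2815 and 2868. Its log2 difference was 0.045 with a 95% interval of -0.28 to 0.37, and all 3 of its tested probe sets lay between 0.045 and 0.28. A 2-fold difference of Kpnb1 in either direction lies outside that interval.

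The remaining import receptors had differences from -0.44 to 0.26, and none passed. Ipo13, which carries cargo in both directions, read 2139 and 2154 against 3116 and 2590 (-0.40, limma adjusted p = 0.151). Ipo9, which carries histones and actin, differed by -0.12 at its brightest probe set and by -0.19 and 0.13 at the others. Tnpo2 differed by -0.44 (adjusted p = 0.158), with its probe sets at -0.54 to 0.12. Ipo4, at -0.40 and -0.59 at its 2 probe sets, had an adjusted p of 0.128 for the brighter one.

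Xpo1, the main exporter of proteins with leucine-rich signals, was the export receptor that rose. It read 1931 and 2088 against 1159 and 1276, with means of 2010 ± 111 and 1217 ± 82.7 (SD, n = 2). It rose by 0.72 (SE 0.14, limma adjusted p = 0.0339), or 1.65-fold. The second bright probe set of Xpo1 read 1591 and 1593 against 1061 and 1210 (0.49, SE 0.15, adjusted p = 0.109 in the fit of single probe sets), also without overlap. With the mean over all its probe sets, 1 of them close to the floor, the call was lost (0.42, adjusted p = 0.158).

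The other exporters stayed within 2-fold by their point values and were not called. The brightest, Cse1l, which returns importin alpha to the cytoplasm, read 3122 and 2796 against 2371 and 2641 (0.24, limma adjusted p = 0.332). The transfer RNA exporter Xpot had a difference of -0.035 (95% interval -0.37 to 0.30) at its brightest probe set, and 0.41 and 0.30 at the others. Xpo5, which exports precursors of microRNAs, read 877 and 791 against 1112 and 1177 (-0.46, adjusted p = 0.0909). The actin exporter Xpo6 differed by -0.28 (adjusted p = 0.233). Xpo7 was at 0.24 and -0.040 at its 2 tested probe sets, and its 6 other probe sets were under the filter. The dim Xpo4 had a difference of -0.43 and a wide interval of -1.15 to 0.29.

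Read probe set by probe set, 105 of the 132 members were above the filter, and 27 were not, of which 11 were at the floor on all 4 arrays. Of the 105, 5 were called higher and 4 lower (8.57% in all, against 11.7% of 22519 probe sets). The shares were 4.76% higher against 4.30%, and 3.81% lower against 7.44%. Those called lower were 2 of Ndc1, 1 of Pom121 and 1 of Nup155, and those called higher were 1 each of Kpna3, Kpna4, Tnpo3, Xpo1 and Nup54. Among 31 genes with more than 1 tested probe set, the probe sets were all above 0 for 10, all below 0 for 9 and of mixed sign for 12. The mixed genes were Ipo7, Ipo9, Kpna6, Nup153, Nup205, Nup214, Nup98, Rae1, Ranbp2, Tnpo2, Xpo7 and Xpot. None of them was called at the gene level. The 5 called members with more than 1 tested probe set (Ndc1, Pom121, Kpna3, Tnpo3 and Xpo1) were not among the mixed genes.

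**Figure D3:**
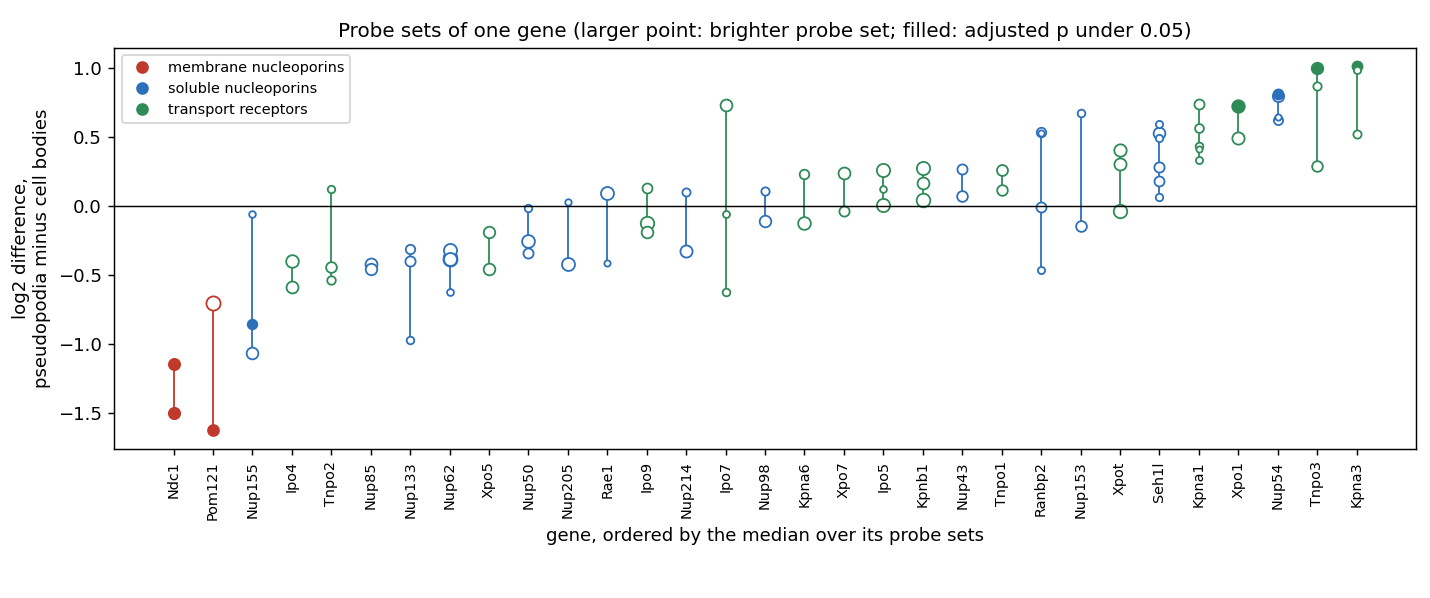
Log2 difference (pseudopodia minus cell bodies) of each tested probe set of the 31 member genes with more than 1, ordered by the gene's median, with larger points for brighter probe sets and filled points for an adjusted p under 0.05 in the fit of single probe sets. Ndc1 and Pom121 stand at the low end with no probe set above -0.70, Kpna3 and Tnpo3 at the high end, and 12 genes cross 0.

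The rest of the pathway was read from lists of genes by role. Of 6 genes of the Ran cycle, 0 were called by limma, which with 14.6% called over all genes is no result about so short a list. Ran itself, the GTPase that gives transport its direction, read 9738 and 9406 against 9717 and 10152, a difference of -0.054 (95% interval -0.38 to 0.28). The sign of this small difference turned with quantile normalization and with other choices of probe set. The exchange factor Rcc1 and the activator Rangap1 had differences of -0.31 and -0.42 (adjusted p of 0.296 and 0.125). Of 15 mRNA export factors, 2 rose and 0 fell. The share called, 13.3% against 14.6% of all genes, is close to the background and is no result about the list. By direction, 13.3% were higher against 5.92%, and 0% lower against 8.69%. Thoc1 rose by 1.58 (SE 0.14, limma adjusted p = 0.0166) and Thoc7 by 0.83 (SE 0.13, adjusted p = 0.0242). Both belong to the THO complex, which loads export factors on nascent messengers. With the mean of all probe sets both calls were lost, at 0.85 for Thoc1 (adjusted p = 0.0568) and 0.42 for Thoc7 (0.0837). The second tested probe set of Thoc1 read 314 and 306 against 151 and 112. It passed in the fit of single probe sets (1.25, SE 0.20, adjusted p = 0.0304). Thoc1 read 478 and 498 against 175 and 151, the largest difference of that list when each gene is read at its brightest probe set. The list's median was -0.056. The other THO genes Thoc2, Thoc3, Thoc5 and Thoc6 were not called, at -0.37 to 0.29 at their brightest probe sets. Dimmer probe sets of Thoc2 were at 1.94 and 1.83, without overlap between compartments. They did not pass in the fit of single probe sets (adjusted p of 0.0708 and 0.0544). The dimmer probe set of Thoc3 was at -0.046. Among 6 pore and receptor genes outside the name rule, 1 was called, or 16.7% against 14.6% of all genes, again no result about the list. It was the importin family member Ranbp6, which rose by 1.31 (SE 0.21, limma adjusted p = 0.0249), from 63.8 and 44.8 in cell bodies to 125 and 145. Ranbp6 was dim, with cell body values not far above the filter level of 42.0, and it left the test with the stricter filter.

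A list of other nuclear envelope membrane proteins, which includes the lumenal Tor1a, was lower in pseudopodia at most genes. Of 17, 11 fell and 0 rose (64.7% lower, against 8.69% of all genes), and the median was -1.002. Sun1 and Sun2, which span the inner membrane and bind the cytoskeletal linkers, fell by 1.60 (SE 0.17, limma adjusted p = 0.0166) and 1.10 (SE 0.19, adjusted p = 0.0281). Sun1 read 309 and 353 against 1122 and 896, which is close to the pattern of Ndc1. Ankle2 fell by 1.53, Nemp1 by 1.31, Lbr, the lamin B receptor, by 1.12, and Nrm by 1.11. The linker Syne3 fell by 1.12, the LEM-domain proteins Lemd3 and Lemd2 by 1.10 and 0.88, Tmem201 by 1.00 and the lumenal ATPase Tor1a by 0.94. The other 6 did not pass: Emd differed by 0.030, Tmpo by 0.031, Tor1aip2 by 0.058, Syne1 by -0.013, Tor1aip1 by -0.13 and Syne2 by -0.76. Dimmer probe sets of Tor1aip2 lay between -0.63 and 0.010, those of Tmpo between -0.89 and 0.35, and that of Tor1aip1 at -0.50. None of these passed in the fit of single probe sets. Among the genes that fell, the dimmer probe sets of Ankle2 did not pass in that fit either (-0.77 and -0.16, adjusted p of 0.0713 and 0.681). Nor did the brightest of Lemd3 and Syne3 (adjusted p of 0.0517 and 0.0503). The dimmer probe sets of Sun2 and Tmem201 did pass (-1.18 and -1.30, adjusted p of 0.0283 and 0.0298). The 3 lamins, which lie under the same membrane, were not called by limma. Their differences were -0.44 for Lmna, -0.59 for Lmnb2 and 0.18 for Lmnb1 (adjusted p of 0.0860, 0.0853 and 0.503). The dimmer probe set of Lmnb1 was at -0.34. With the mean of all probe sets the same 11 ran from -1.31 for Nemp1 to -0.63 for Lemd3 and all had an adjusted p under 0.05, but Sun1 (-1.06), Ankle2 (-0.82), Nrm (-0.63) and Lemd3 (-0.63) moved by over 1.5 times. Where Ndc1 and Pom121 stand against this list therefore depends on the choice of probe set. These lists were set by role with earlier results of these arrays known, among them lower levels of reticulum and secreted protein messengers, so their counts are not independent support.

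**Figure D4:**
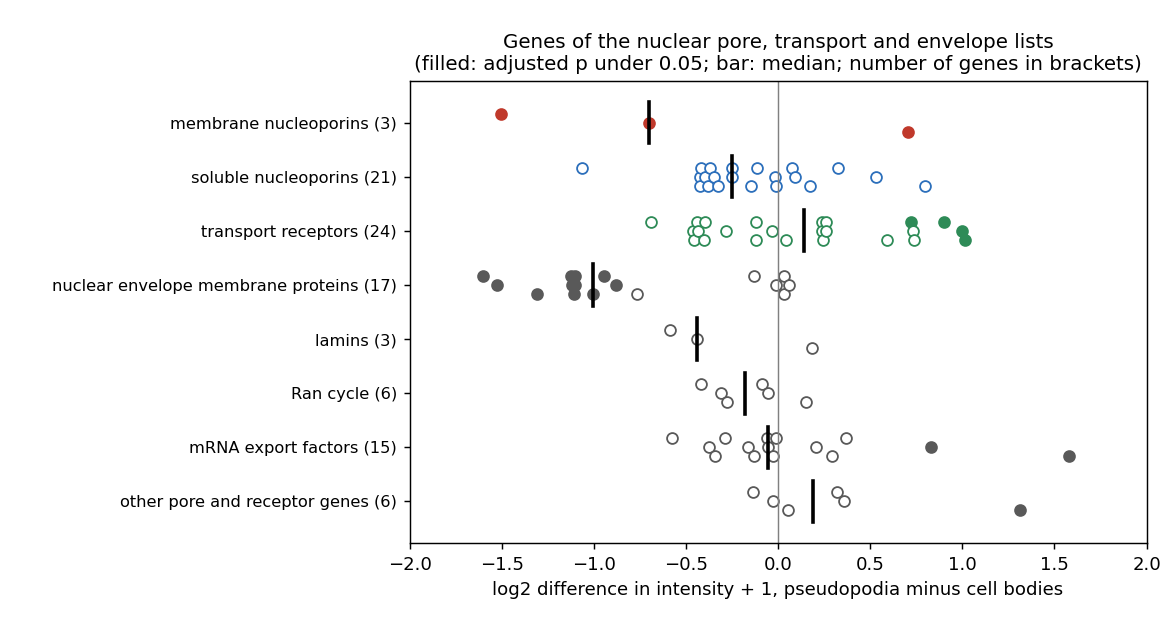
Log2 difference (pseudopodia minus cell bodies) of each gene of the member classes (coloured) and of the other pathway lists (grey), with filled points for an adjusted p under 0.05 and a vertical bar at each list's median. The 17 nuclear envelope membrane genes have a median of -1.002 and the soluble nucleoporins one of -0.25, and the transport receptors spread on either side of 0.

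These calls rest on all 4 arrays. When a single array was left out, whichever it was, 0 genes of any kind were called by limma, with 2797 to 2891 genes and 11 to 20 members at an unadjusted p under 0.05. The direction of each of the 7 called members was kept in each of these fits: Ndc1 ran from -1.62 to -1.38, Pom121 from -0.85 to -0.56, Nup210 from 0.58 to 0.83, Xpo1 from 0.65 to 0.79, Tnpo3 from 0.87 to 1.13, Kpna3 from 0.93 to 1.10 and Kpna4 from 0.76 to 1.04.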

How the data were processed

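The deposited values are probe set intensities of 4 arrays, 1 per sample. How they were summarised and scaled is not stated in the labels or file headers, and each array's lowest value is 20. The array records name 1 chip type (Mouse430_2) and the same scan day for all arrays, each with its own fluidics module, so no batch could be fitted. Here 64 control probe sets were left out, log2(intensity + 1) was taken with no further scaling, a gene was read at its brightest probe set among those naming 1 symbol, and genes averaging under the median probe set (log2 5.42) were left out. Compartments were compared two-sided with lmFit and eBayes of limma 3.58.1 (R 4.3.3), with Benjamini-Hochberg adjustment, with 2 residual and 2.90 prior degrees of freedom. The same fit was run with each of 22519 probe sets on its own. The fit was tested on simulated data. Named genes were all called members, the membrane nucleoporins, the 3 brightest of each role, members with a called probe set or probe sets of mixed sign, and called genes of the other lists with Ran. Further members, chosen after their values were seen, are named to account for each role. Members and lists were chosen with earlier results of these data known. Alternatives were another pseudocount, no filter or a stricter one, quantile normalization, median centring, the mean of a gene's probe sets, leaving out probe sets ending in _s_at or _x_at, the replicate number as a block, and each array left out in turn.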

Additional observations from a re-analysis of the deposited data

How the results depend on the processing

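Every one of the 7 called members kept its direction in each setting that tested it. Without a filter on low values, limma called 2 genes (3844 at an unadjusted p under 0.05), 0 members in either direction (18 members), 0 genes of the other lists, among them 0 nuclear envelope membrane genes, 73 probe sets and 0 member probe sets. The number of called member probe sets rose from 9 to 19 with a pseudocount of 32 and to 19 with a stricter filter (mean intensity of at least 100). Members called lower went from 2 to 1 with quantile normalization and to 1 without probe sets ending in _s_at or _x_at, and members called higher from 5 to 3 with the mean of all probe sets of a gene. The median of the membrane nucleoporins was -1.10 with a stricter filter or, chosen after seeing the data, without Nup210, since Nup210 then left the test, and -1.31 with the mean of all probe sets, where Nup210 also left it and Pom121 moved to -1.16; it was -0.85 to -0.56 with 1 array left out. With the replicate number as a block, 12 members were called, 9 of them higher, and 14 member probe sets. Replicate differences of the compartments correlated at 0.34 over genes, 1 value from 2 pairs, which does not show that the numbers pair the samples. Signs turned only for differences near 0 among the named genes. With quantile normalization Ipo9 was at 0.0090, Ranbp2 at 0.047, Xpot at 0.094 and Ran at 0.011. With the mean of all probe sets Kpna6 was at 0.056, Kpnb1 at -0.011, Rae1 at -0.11, Ranbp2 at 0.15, Xpot at 0.17 and Ran at 0.015, and Ran was at 0.19 without _s_at and _x_at probe sets. With 1 array left out Rae1 ran from -0.015 to 0.20 and Ranbp2 from -0.21 to 0.19. Except where stated, the cause of these moves was not tested.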

Other observations

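Probe sets annotated to a member and another gene entered no comparison. One shared by Ipo4 and Tm9sf1, which encodes a membrane protein, read 622 and 718 in pseudopodia and 2079 and 1927 in cell bodies, a log2 difference of -1.58, against -0.40 and -0.59 at the probe sets of Ipo4 alone. Those shared by Xpo4 and Lats2 and by Kpna4 and 9630025H16Rik differed by 0.19 and 0.13.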
